A study of Marchantia polymorpha and Klebsormidium nitens with 125 samples.

Results

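MpGH16.31 (Mp4g01200), MpGT47.9 (Mp3g13740) and MpCE8.1 (Mp1g00190) are 3 genes of the liverwort Marchantia polymorpha that belong to carbohydrate-active enzyme families of the cell wall. They are 3 of the 19355 genes in each of the 3 M. polymorpha count tables, and all 3 passed the filter on low counts in every table. The genes were chosen by identifier with results of these data known. Under the naming rule of an earlier examination, MpGT47.9 stood among the 5 highest genes in nitrate starvation against control and among the 5 lowest in 72 h nitrate resupply against nitrate-starved. MpGH16.31 was the highest of the 1108 genes ranked in 24 h sucrose resupply against sucrose-starved. MpCE8.1 met that part of the rule nowhere, and which comparison led to its choice is not given in the sources used here. The earlier rule also named up to 3 genes of each gene list by their adjusted p, so a choice through a family list is possible for each of them. Values from the comparisons that met the rule, and from any other comparison that reuses their libraries, are therefore given as descriptions without a p-value. The same holds for MpCE8.1 in every comparison with sucrose-starved plants.

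The wall of a land plant is a network of cellulose tied by xyloglucan and other hemicelluloses and embedded in pectin. Glycoside hydrolase family 16 (GH16) holds the xyloglucan endotransglucosylase/hydrolases, which cut and rejoin xyloglucan chains, beside hydrolases of other glucans. Glycosyltransferase family 47 (GT47) holds exostosin-type enzymes of the Golgi, which in flowering plants add sugars to xyloglucan, xylan and pectic side chains. Carbohydrate esterase family 8 (CE8) holds the pectin methylesterases, which remove methyl groups from homogalacturonan. The substrate of each of the 3 Marchantia proteins was not measured here, and the family name is what the symbol gives.

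Gene-level read counts came from poly(A)-selected, strand-specific mRNA libraries of whole gemmalings, the young plants that grow from gemmae. All plants were kept in liquid Yamagami medium for 7 days and then for 5 more days in which a starved group had nitrate or phosphate cut to 1% or sucrose cut to 0%. In the first table, Tak-1, the male wild-type strain, was starved of nitrate, phosphate or sucrose, or was moved back to full medium for 6, 24 or 72 h after each starvation, and was compared with a control in full medium (13 groups of 3 libraries). In the second table, the mutants Mpcsd-2, Mperf20-21 and Mphd9-14 were set beside Tak-1, all in full medium (3 libraries each). In the third table, each mutant was starved of nitrate, phosphate or sucrose and compared with its own control, with 3 libraries in each group except sucrose-starved Mperf20-21, which had 2. Each mutant was represented by 1 line, named for the gene MpCSD, MpERF20 or MpHD9, and no starved Tak-1 plants stood in the third table. For the first table the labels list 1 control group and no starved group kept on for the added 6, 24 or 72 h. Return of a nutrient therefore cannot be told apart from added time or handling. The labels call libraries of a group replicates and do not say whether separate cultures stood behind them; the spread that a p-value is set against may therefore be technical.

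The 86 libraries held 16878159 to 38992957 counts each. No 2 libraries were identical, and the mean correlation of a library with the others of its group was 0.984 to 0.998. The transcript of the mutated gene remained detectable in each mutant: MpCSD averaged 683 CPM in Mpcsd-2 against 814 CPM in Tak-1, MpERF20 averaged 6.59 CPM in Mperf20-21 against 11.8 CPM in Tak-1, and MpHD9 averaged 34.3 CPM in Mphd9-14 against 46.6 CPM in Tak-1 (CPM, counts scaled to library size with TMM). Green thallus markers were high in every library, with MpNOP1, which acts in air chamber formation, at 81.3 to 144 CPM and MpRBCS, the small subunit of Rubisco, at 173 to 691 CPM. The germ cell regulator MpDUO1 reached at most 1.20 CPM and the gemma cup regulator MpGCAM1 lay between 0.0959 and 7.58 CPM, while the other fixed markers of rhizoids and germ cells had no row under their symbols. In whole gemmalings, a change in the number of cells that express a gene and a change in its RNA per cell cannot be told apart.

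MpGH16.31 was close to silent in control and starved Tak-1 plants and reached its highest level 24 h after sucrose was returned. It had 0 counts in all 3 nitrate-starved libraries, 0, 13 and 0 counts in the phosphate-starved libraries and 0 counts in all 3 sucrose-starved libraries, against 1, 6 and 2 counts in the control libraries. Counts of 0 allow up to 0.0307 CPM over the nitrate-starved group and 0.0457 CPM over the sucrose-starved group, taking 3 counts as the floor of a group; these limits cover counting error only. Taking the 9 control counts as exact, these floors put nitrate- and sucrose-starved levels at least 3.60-fold and at least 2.41-fold below control. The groups did not overlap, but the lowest control library held 1 count, and 6 of the 9 counts came from 1 library. The nitrate difference did not pass the threshold (edgeR quasi-likelihood test, Benjamini-Hochberg adjusted p = 0.425), where 31.6% of all tested genes passed. The sucrose difference is a description.

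Return of sucrose gave 31, 11 and 25 counts of MpGH16.31 after 6 h, 636, 504 and 455 counts after 24 h, and 6, 120 and 2 counts after 72 h. On the CPM scale the 24 h libraries stood at 24.4, 18.0 and 15.9, a mean of 19.5 ± 4.41 CPM (SD, n = 3). The 24 h libraries lay above every other Tak-1 library of the time course, and the group next in order, 72 h of sucrose, averaged 1.74 ± 2.75 CPM (SD, n = 3) with 120 of its 128 counts in replicate 2. Against the sucrose-starved libraries at 0 counts, the level was at least 20.9-fold higher after 6 h, at least 422-fold higher after 24 h and at least 37.3-fold higher after 72 h. These comparisons share the libraries that led to the gene's choice and are a description, in a contrast where 54.4% of all 13504 tested genes passed the threshold at 24 h.

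After nitrate was returned, MpGH16.31 also passed the threshold at 24 and 72 h, at a low level. It had 7, 0 and 0 counts after 6 h, 17, 23 and 27 counts after 24 h, and 55, 2 and 6 counts after 72 h. The 24 h and 72 h libraries did not overlap with the nitrate-starved libraries, all at 0. The level was at least 26.3-fold higher than in nitrate-starved plants after 24 h (adjusted p = 0.0469, edgeR) and at least 25.3-fold higher after 72 h (adjusted p = 0.0448, edgeR). Across all tested genes, 29.9% passed at 24 h and 32.5% at 72 h. Both calls rest on few counts. With a replicate block neither passed (adjusted p = 0.0589 at 24 h and 0.0547 at 72 h), and without the filter on low counts the 24 h call was lost (adjusted p = 0.0503). The 24 h call was also lost when any 1 of its 6 libraries was left out (adjusted p = 0.064 to 0.109, edgeR). The 72 h call was lost without 72 h replicate 1, where the fitted log2 difference was 5.00 (adjusted p = 0.397), and without any 1 of the nitrate-starved replicates 1, 2 and 3, where it was 7.43, 7.44 and 7.44 (adjusted p = 0.105, 0.098 and 0.0955).

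Return of phosphate gave no call for MpGH16.31. Its counts were 0, 18 and 43 after 6 h, 2, 2 and 74 after 24 h and 15, 2 and 8 after 72 h, against 0, 13 and 0 in phosphate-starved libraries. The replicates of each group were far apart, and the log2 differences were 2.14 ± 1.56, 2.57 ± 1.51 and 1.07 ± 1.78 (SE), with adjusted p of 0.277, 0.199 and 0.69 (edgeR; 46%, 33.9% and 33.8% of all genes passed). After 72 h back in full medium the level did not pass the threshold against control for any of the 3 nutrients, with log2 differences of 2.81 ± 1.66 for nitrate (adjusted p = 0.31), 1.59 ± 1.90 for phosphate (adjusted p = 0.694) and 3.90 ± 1.53 for sucrose (description). Against control, 9.68% of all genes passed at 72 h of nitrate, 7.09% at 72 h of phosphate and 15.2% at 72 h of sucrose.

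**Figure D1:**
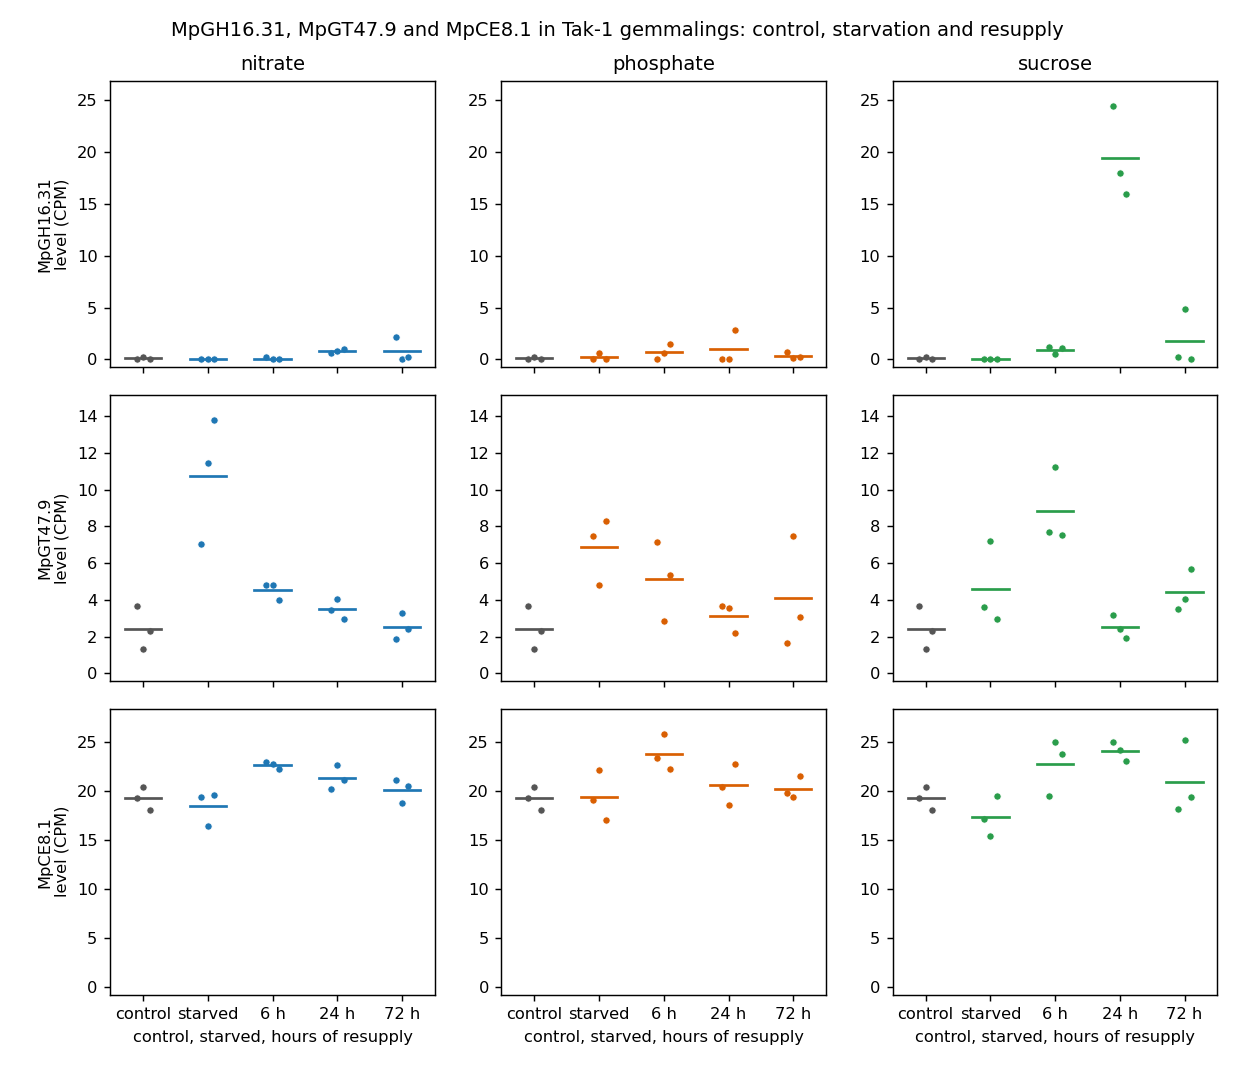
Level of MpGH16.31, MpGT47.9 and MpCE8.1 in all 39 time course libraries of Tak-1, in TMM-scaled CPM on a linear axis, with 1 column of panels per nutrient and groups from control through starvation to 6, 24 and 72 h of resupply; points are libraries and short lines are group means. MpGH16.31 stands out at 24 h of sucrose (19.5 CPM on average), MpGT47.9 is highest in nitrate-starved plants (10.8 CPM) and MpCE8.1 stays between group means of 17.4 and 24.1 CPM.

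In full medium in the second table, MpGH16.31 stood at a low level in all 4 genotypes and was higher than Tak-1 past the threshold in 1 of the 3 mutants. The gene had 30, 32 and 48 counts in Mpcsd-2, 10, 46 and 46 counts in Mperf20-21 and 15, 23 and 18 counts in Mphd9-14, against 13, 11 and 12 counts in Tak-1. It rose in Mpcsd-2, with 1.64 ± 0.534 CPM against 0.539 ± 0.0749 CPM in Tak-1 (SD, n = 3 each), a log2 difference of 1.60 ± 0.47 (SE, adjusted p = 0.00788, edgeR) where 56.8% of all tested genes passed. Mperf20-21 averaged 1.24 ± 0.746 CPM (log2 difference 1.20 ± 0.48, adjusted p = 0.051, edgeR; 41.3% of all genes passed). Its replicate 1 lay below every Tak-1 library, and without that library the log2 difference was 1.63 (adjusted p = 0.00322, edgeR). Mphd9-14 averaged 0.758 ± 0.113 CPM, and although each of its libraries lay above Tak-1, the log2 difference of 0.50 ± 0.50 did not pass the threshold (adjusted p = 0.453, edgeR; 43.7% of all genes passed). The ratio of the highest to the lowest of the 4 group means was 3.04, larger than that of 90.6% of tested genes. In the third table, Mpcsd-2, Mperf20-21 and Mphd9-14 in full medium averaged only 0.0166, 0.102 and 0.329 CPM, with no Tak-1 beside them.

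Phosphate starvation raised MpGH16.31 in all 3 mutants. In Mpcsd-2 it had 51, 123 and 16 counts in phosphate-starved libraries against 1, 0 and 0 counts in the control. In Mperf20-21 it had 56, 24 and 49 counts in phosphate-starved libraries against 0, 7 and 1 in the control. In Mphd9-14 it had 56, 74 and 66 counts in phosphate-starved libraries against 7, 5 and 10 in the control. The starved and control libraries did not overlap in any of the 3 mutants. The log2 differences were 6.95 ± 1.02 in Mpcsd-2 (adjusted p = 1.56e-05), 4.33 ± 0.75 in Mperf20-21 (adjusted p = 0.000445) and 3.32 ± 0.63 in Mphd9-14 (adjusted p = 0.00197; SE, edgeR). With 1 count in the control of Mpcsd-2, its fitted value is loosely bound: the ratio of the group sums, scaled to library size, was 178 with a 95% counting interval of 31.6 to 7070. All 3 contrasts called few genes, with 7.8% of the 13162 tested genes passing in Mpcsd-2, 4.57% in Mperf20-21 and 2.3% in Mphd9-14. In Tak-1 of the first table, phosphate starvation gave 13 counts in 3 libraries against 9 in control, all 13 of them in replicate 2.

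Nitrate starvation raised MpGH16.31 in Mphd9-14, with 81, 52 and 73 counts in nitrate-starved libraries against 7, 5 and 10 in the control. The log2 difference was 3.26 ± 0.63 (SE, adjusted p = 0.00578, edgeR) in a contrast where 1.22% of all genes passed. Without control replicate 2 it was 3.04 (adjusted p = 0.0645, edgeR). In Mperf20-21 the nitrate-starved libraries had 19, 11 and 11 counts against 0, 7 and 1 in the control, also without overlap, and the difference of 2.48 ± 0.86 did not pass (adjusted p = 0.135, edgeR; 3.25% of all genes passed). In Mpcsd-2 the nitrate-starved libraries had 5, 1 and 0 counts against 1, 0 and 0 in the control (adjusted p = 0.783, edgeR; 1.85% of all genes passed).

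Sucrose starvation left MpGH16.31 near 0 in the mutants. The sucrose-starved libraries had 0, 7 and 1 counts in Mpcsd-2, 0 and 0 counts in Mperf20-21 and 3, 2 and 0 counts in Mphd9-14. The controls of the same mutants had 1, 8 and 22 counts over their 3 libraries, and none of the 3 differences passed (adjusted p = 0.221, 0.302 and 0.201, edgeR; 26.2%, 15.3% and 22.4% of all genes passed). The Mphd9-14 libraries did not overlap, with 5 counts over the sucrose-starved group against 22 over the control.

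**Figure D2:**
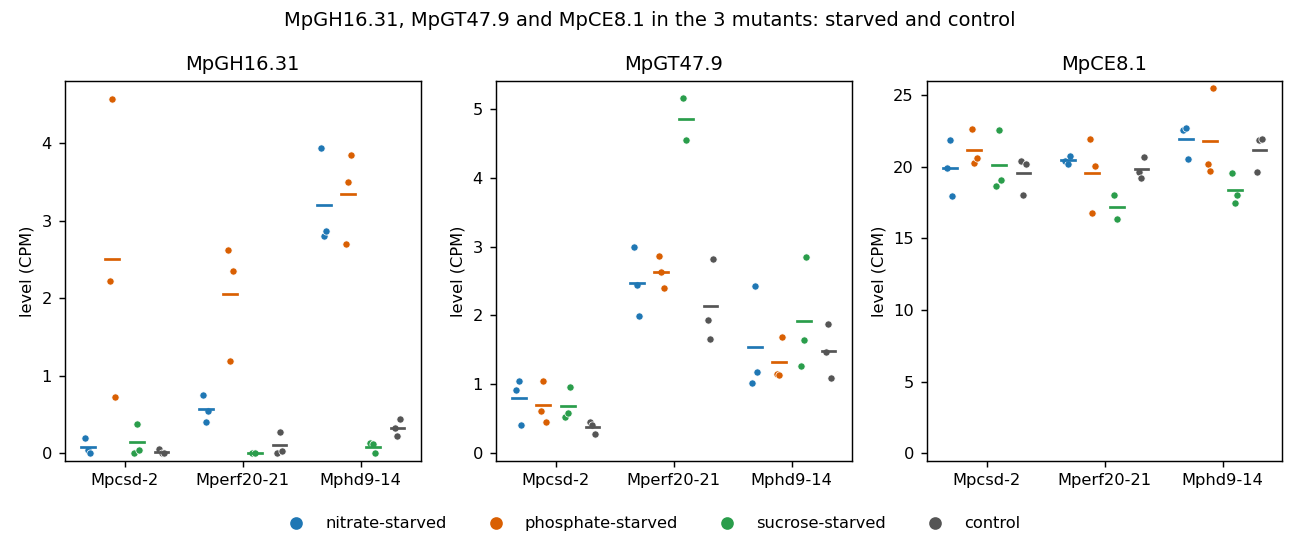
Level of MpGH16.31, MpGT47.9 and MpCE8.1 in the 35 libraries of the mutant starvation table, in TMM-scaled CPM, with the starved groups of each mutant left of its control; points are libraries and short lines are group means. MpGH16.31 is raised in the phosphate-starved group of all 3 mutants and in nitrate-starved Mphd9-14, and averages at most 0.140 CPM in the sucrose-starved groups.

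The starvation responses of mutants and Tak-1 were compared in 1 fit of the third table with the control and starved libraries of the first. Genotype and table cannot be told apart in that fit beyond a constant offset. The nitrate response of MpGH16.31 was larger in Mphd9-14 than in Tak-1 by 7.65 ± 2.16 (log2, SE, adjusted p = 0.0146, edgeR; 14.3% of the 13559 tested genes passed) and larger in Mperf20-21 than in Tak-1 by 6.85 ± 2.28 (adjusted p = 0.0405; 14% passed), while in Mpcsd-2 the nitrate difference of 6.57 ± 2.88 did not pass (adjusted p = 0.147; 10.3% passed). The phosphate response was larger in Mpcsd-2 than in Tak-1 by 6.45 ± 1.99 (adjusted p = 0.0472; 6.31% passed), a call that was lost with only the compared groups in the fit (adjusted p = 0.133) and with a replicate block (adjusted p = 0.0504). The nitrate-starved Tak-1 libraries were at 0, so the fitted sizes for nitrate are not bounds. The Mphd9-14 call was lost without Tak-1 control replicate 2 (6.62, adjusted p = 0.142), and the other 2 calls were each lost in 9 of the 12 fits that left out 1 library. The phosphate response did not pass for Mperf20-21 (3.79 ± 1.60, adjusted p = 0.184; 4.48% passed) or Mphd9-14 (2.79 ± 1.48, adjusted p = 0.302; 4.73% passed), but it passed in both when phosphate-starved Tak-1 replicate 2, the library with 13 counts, was left out (8.74 with adjusted p = 0.00826 for Mperf20-21 and 7.72 with adjusted p = 0.0156 for Mphd9-14, edgeR). The phosphate-starved Tak-1 libraries that remained were at 0, so these fitted sizes are not bounds either.

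Other GH16 genes were counted as the surroundings of MpGH16.31, from the 42 that carry a GH16 symbol. Of the 23 others that passed the filter in the time course, 13 rose and 2 fell after 24 h of sucrose, 3 rose and none fell in nitrate starvation, 1 rose and 1 fell in phosphate starvation and 6 rose and none fell in sucrose starvation. Of all tested genes, 54.4% passed after 24 h of sucrose, 31.6% in nitrate starvation, 24.6% in phosphate starvation and 35.3% in sucrose starvation. The median log2 difference of the 23 after 24 h of sucrose was 0.69, against 0.0020 over all tested genes. MpGH16.40 was higher in all 3 starvations, by 0.55 ± 0.12 for nitrate (adjusted p = 0.000551), 0.45 ± 0.12 for phosphate (adjusted p = 0.0053) and 0.57 ± 0.12 for sucrose (adjusted p = 0.000309; log2, SE, edgeR). MpGH16.8 was higher by 2.64 ± 0.45 in sucrose starvation (adjusted p = 2.67e-05) and by 1.70 ± 0.44 in nitrate starvation (adjusted p = 0.00322, edgeR). MpGH16.31 itself was at 0 counts in both of those starved groups.

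In the mutants' phosphate starvation, 8 of the 20 other GH16 genes tested rose and none fell in Mpcsd-2, which is 40% against 7.8% of all genes. The count was 5 to 7 in the fits that left out 1 library, with 5 when Mpcsd-2 control replicate 3 was left out. In Mperf20-21 and in Mphd9-14, 3 others rose and none fell, or 15% against 4.57% and 2.3% of all genes. In nitrate-starved Mphd9-14, 3 others rose (1.22% of all genes passed), and 0 to 2 did so in the fits that left out 1 library, with 0 when Mphd9-14 control replicate 2 was left out.

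MpGH16.13 (Mp2g22660) and MpGH16.26 (Mp3g22120), were singled out after their values were seen and are given as a description. In phosphate-starved Mpcsd-2 they averaged 2.42 ± 2.01 and 3.10 ± 2.60 CPM against 0.0766 ± 0.0321 and 0.275 ± 0.154 CPM in the control (SD, n = 3 each). The log2 differences were 4.94 ± 0.75 and 3.46 ± 0.55 (SE). Their log2 differences in phosphate starvation were 2.82 ± 0.56 and 2.62 ± 0.53 in Mperf20-21 and 2.73 ± 0.52 and 2.92 ± 0.52 in Mphd9-14, and in nitrate starvation 2.52 ± 0.52 and 2.54 ± 0.52 in Mphd9-14 (SE). The nitrate differences were smaller in Mpcsd-2 (1.04 ± 1.11 and 0.93 ± 0.64) and in Mperf20-21 (1.25 ± 0.60 and 0.80 ± 0.60, SE). After 24 h of sucrose they averaged 13.2 ± 2.28 and 16.6 ± 2.39 CPM, against 0.326 ± 0.268 and 0.0812 ± 0.108 CPM in sucrose-starved Tak-1 (SD, n = 3 each). In Mpcsd-2 in full medium in the second table the values lay on opposite sides of Tak-1: MpGH16.13 had a log2 difference of -3.86 ± 0.77 (0.0469 against 0.716 CPM) and MpGH16.26 one of 3.38 ± 0.42 (3.11 against 0.290 CPM). For MpGH16.26 this full-medium level of Mpcsd-2 stood beside the 3.10 CPM of phosphate-starved Mpcsd-2 in the third table, whose own control had 0.275 CPM.

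Genes with the pattern most like MpGH16.31 were ranked by Pearson's r of log2(CPM + 1) over the 13 group means of the time course, among 9813 genes that reached 10 CPM in some group. The 5 nearest were Mp3g11140 (r = 0.989), Mp3g21470 (0.988), Mp2g03660 (0.987), MpPOD93 (0.986), whose symbol marks a class III peroxidase, and MpPPO72 (0.986), a polyphenol oxidase by its symbol. All 5 peaked with MpGH16.31 at 24 h of sucrose, with means of 15.9 CPM for Mp3g11140, 25.5 CPM for Mp3g21470, 13.8 CPM for Mp2g03660, 12.8 CPM for MpPOD93 and 36.5 CPM for MpPPO72. With 1 group this far above the others, r over group means mostly reflects that group. Over the 12 groups of the mutant table, which the ranking did not use, r was 0.959 to 0.990, and within groups, after taking out group means, it was 0.908 to 0.946 over the time course libraries and 0.533 to 0.787 over the mutant libraries. These are descriptions over libraries that share their table and scaling. With an offset of 0.1 in place of 1, 3 of these 5 genes remained among the nearest.

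The 5 nearest genes were also followed in the mutants. All 5 rose in phosphate-starved Mpcsd-2 (log2 differences 2.51 to 7.88), in phosphate-starved Mperf20-21 (2.45 to 4.06), in phosphate-starved Mphd9-14 (2.38 to 4.57) and in nitrate-starved Mphd9-14 (2.66 to 3.84), each past the threshold (largest adjusted p of 0.0385, edgeR). Of all genes, 7.8%, 4.57%, 2.3% and 1.22% passed in these contrasts. None of the 5 passed in nitrate-starved Mpcsd-2 or Mperf20-21, where 1.85% and 3.25% of all genes passed. None passed in sucrose-starved Mpcsd-2, Mperf20-21 or Mphd9-14 either, where 26.2%, 15.3% and 22.4% of all genes did. In the second table only Mp3g21470 and MpPPO72 were tested. Against Tak-1 neither passed in Mpcsd-2 (-0.98 and 0.20, adjusted p = 0.388 and 0.825), where MpGH16.31 did. Both rose in Mperf20-21 (2.41 and 2.77, adjusted p = 0.00591 and 0.000892), where MpGH16.31 did not pass. In Mphd9-14 MpPPO72 passed and Mp3g21470 did not (adjusted p = 0.0271 and 0.0949, edgeR). Of all genes, 56.8%, 41.3% and 43.7% passed. The gene with the lowest r was MpE2F (-0.90), a cell cycle regulator by its symbol, with 29.1 CPM at 24 h of sucrose against 39.8 CPM in sucrose-starved plants.

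**Figure D3:**
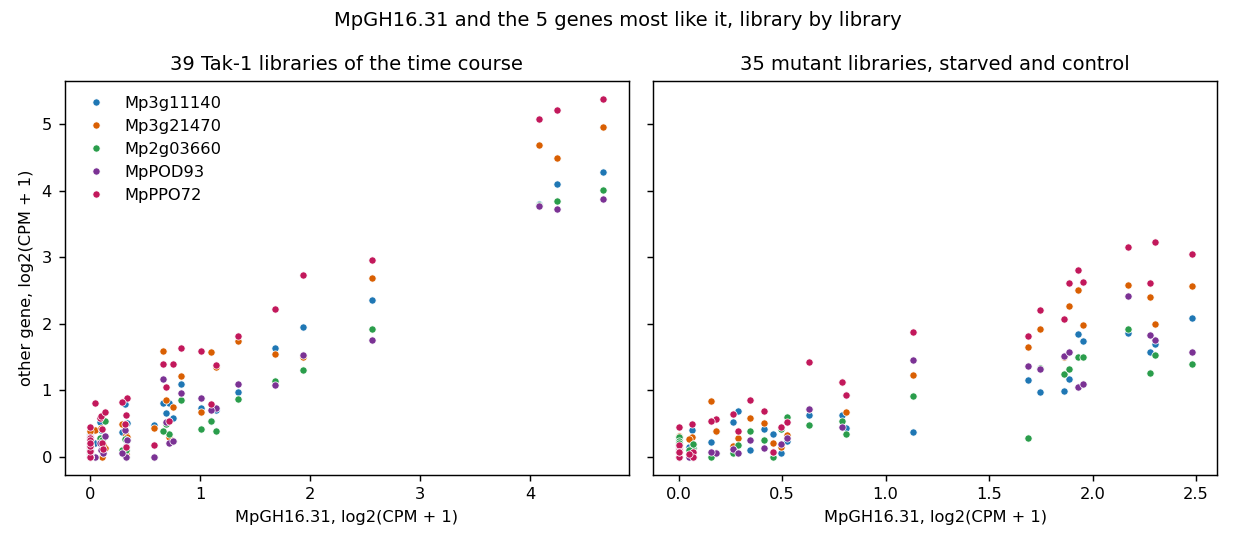
Level of each of the 5 genes most like MpGH16.31 (vertical axis, 1 colour per gene) against the level of MpGH16.31 in the same library (horizontal axis), both as log2(CPM + 1), in the 39 time course libraries (left) and the 35 mutant libraries (right); each point is 1 gene in 1 library. The points at the upper right of the left panel are the 3 libraries of 24 h of sucrose, where the 5 genes averaged 12.8 to 36.5 CPM.

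MpGT47.9 was highest in nitrate-starved Tak-1 plants and lowest in the control. Its levels were 7.02, 11.4 and 13.8 CPM in nitrate-starved libraries against 3.68, 1.34 and 2.29 CPM in control libraries, or 268, 357 and 393 counts against 116, 32 and 60. The means were 10.8 ± 3.43 against 2.44 ± 1.18 CPM (SD, n = 3 each), a log2 difference of 2.11 ± 0.40 (SE) without overlap. Phosphate-starved libraries had 7.48, 4.80 and 8.32 CPM, also above all control libraries, with a difference from control of 1.48 ± 0.41. Without control replicate 2 it was 1.20. Sucrose-starved libraries had 3.60, 7.21 and 2.96 CPM and overlapped with the control, with a difference of 0.90 ± 0.42. It was 1.35 without control replicate 1 and 0.40 without sucrose-starved replicate 2, the library at 7.21 CPM. The level was lower in sucrose-starved than in nitrate-starved plants, with a log2 difference of -1.21 ± 0.39. These comparisons use control or nitrate-starved libraries that led to the gene's choice and are descriptions. Of all tested genes, 31.6% passed in nitrate, 24.6% in phosphate and 35.3% in sucrose starvation.

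Back in full nitrate, MpGT47.9 averaged 4.54 ± 0.461 CPM after 6 h, 3.50 ± 0.534 CPM after 24 h and 2.53 CPM after 72 h (SD, n = 3). The log2 differences from nitrate-starved plants were -1.24 ± 0.38, -1.61 ± 0.39 and -2.07 ± 0.40 (SE, description), and every library at each of these times lay below every nitrate-starved library. At 72 h the mean stood beside the 2.44 CPM of the control, with a log2 difference of 0.04 ± 0.43.

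Phosphate and sucrose resupply did not reuse the libraries of the choice. MpGT47.9 fell after 24 h of phosphate, with 3.66, 3.57 and 2.21 CPM against 7.48, 4.80 and 8.32 CPM in phosphate-starved libraries and no overlap (log2 difference -1.13 ± 0.40, adjusted p = 0.027, edgeR; 33.9% of all genes passed). That call was lost without 24 h replicate 3 (-0.93, adjusted p = 0.131), phosphate-starved replicate 1 (-1.06, adjusted p = 0.0732) or phosphate-starved replicate 3 (-0.97, adjusted p = 0.107). After 72 h the libraries spread from 1.67 to 7.46 CPM, and the difference of -0.78 ± 0.39 did not pass (adjusted p = 0.128). Without 72 h replicate 2, at 7.46 CPM, it was -1.50 (adjusted p = 0.00548, edgeR), and without 72 h replicate 1 it was -0.42 (adjusted p = 0.492).

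MpGT47.9 rose 6 h after sucrose was returned. The 6 h libraries had 7.72, 11.2 and 7.54 CPM against 3.60, 7.21 and 2.96 CPM in sucrose-starved libraries, without overlap, a log2 difference of 0.93 ± 0.39 (SE, adjusted p = 0.0402, edgeR) where 61.5% of all genes passed. The call was lost without 6 h replicate 2 (0.72, adjusted p = 0.158), sucrose-starved replicate 1 (0.76, adjusted p = 0.147) or sucrose-starved replicate 3 (0.68, adjusted p = 0.182). After 24 h, when MpGH16.31 peaked, MpGT47.9 had 3.18, 2.39 and 1.93 CPM, below the 6 h libraries, and its difference from sucrose-starved plants was -0.89 ± 0.42 (adjusted p = 0.0699, edgeR; 54.4% of all genes passed), or -1.15 without sucrose-starved replicate 3 (adjusted p = 0.0322) and -0.39 without sucrose-starved replicate 2 (adjusted p = 0.505). In the order of all 13 groups, each neighbouring pair overlapped. The ratio of the highest to the lowest group mean, nitrate-starved over control, was 4.41, larger than that of 88.0% of tested genes. Those groups led to the gene's choice, so this rank is a description.

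In full medium in the second table, MpGT47.9 was higher in all 3 mutants than in Tak-1. It averaged 4.47 ± 0.687 CPM in Mpcsd-2, 5.20 ± 0.776 CPM in Mperf20-21 and 5.19 ± 2.19 CPM in Mphd9-14, against 2.34 ± 0.481 CPM in Tak-1 (SD, n = 3 each), and no mutant library overlapped with the Tak-1 libraries at 2.41, 2.79 and 1.84 CPM. Mphd9-14 spread most, with 7.58, 4.73 and 3.27 CPM. The log2 differences were 0.93 ± 0.27 in Mpcsd-2 (adjusted p = 0.00704), 1.15 ± 0.27 in Mperf20-21 (adjusted p = 0.00198) and 1.14 ± 0.27 in Mphd9-14 (adjusted p = 0.00204; SE, edgeR). Between 41.3% and 56.8% of all genes passed in these contrasts. In the third table, Mpcsd-2, Mperf20-21 and Mphd9-14 in full medium averaged only 0.378, 2.13 and 1.48 CPM, with no Tak-1 beside them.

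**Figure D4:**
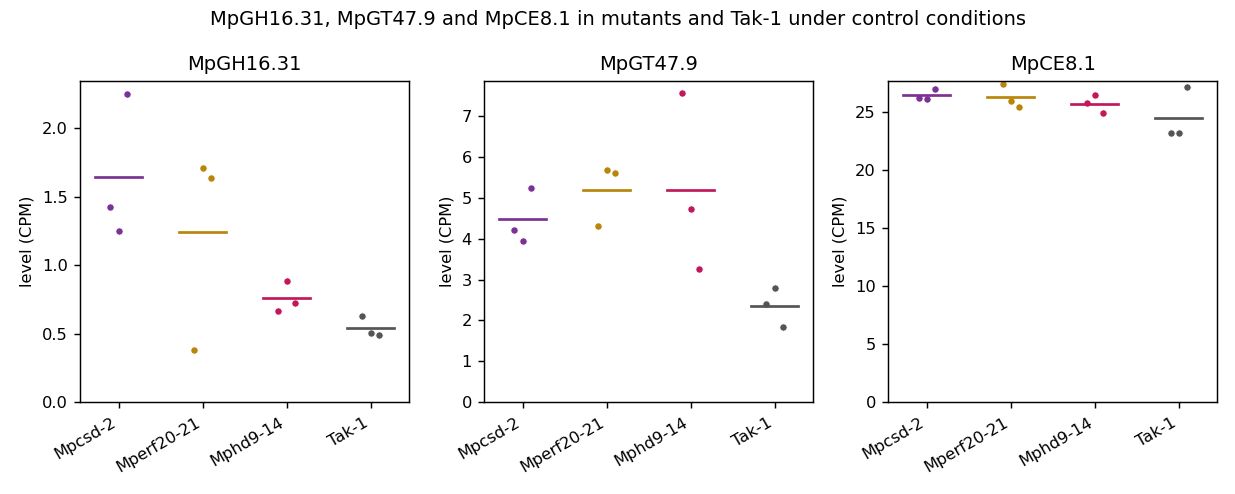
Level of MpGH16.31, MpGT47.9 and MpCE8.1 in Mpcsd-2, Mperf20-21, Mphd9-14 and Tak-1 in full medium, in TMM-scaled CPM; points are the 3 libraries of a group and short lines are means. In these libraries of the second table, MpGT47.9 lies above Tak-1 in all mutant libraries, and MpCE8.1 overlaps in every group.

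Within the mutants, 1 of the 9 starvation contrasts of MpGT47.9 passed the threshold. Of all genes, 1.22% to 3.25% passed in the nitrate contrasts, 2.3% to 7.8% in the phosphate contrasts and 15.3% to 26.2% in the sucrose contrasts. In sucrose-starved Mperf20-21 MpGT47.9 rose, with 5.16 and 4.55 CPM in the 2 starved libraries against 1.93, 1.65 and 2.82 CPM in the control (log2 difference 1.18 ± 0.34, adjusted p = 0.0169, edgeR; 15.3% of all genes passed). The call was lost without control replicate 1 (1.11, adjusted p = 0.0576), control replicate 2 (1.03, adjusted p = 0.0737), starved replicate 1 (1.09, adjusted p = 0.147) or starved replicate 2 (1.27, adjusted p = 0.058), where a lone library is assumed to vary like the other groups. The other 8 contrasts did not pass, with log2 differences of 1.09 ± 0.45 for nitrate, 0.93 ± 0.45 for phosphate and 0.89 ± 0.47 for sucrose in Mpcsd-2 (adjusted p = 0.346, 0.271 and 0.164, edgeR). Its means in Mpcsd-2 were 0.689 to 0.795 CPM in the starved groups against 0.378 CPM in the control. In nitrate starvation, which gave the highest level in Tak-1, the change was 0.22 ± 0.32 in Mperf20-21 (2.48 CPM starved against 2.13 CPM in control) and 0.04 ± 0.35 in Mphd9-14 (1.54 against 1.48 CPM). The nitrate response minus that of Tak-1 was -1.04 ± 0.67 in Mpcsd-2, -1.92 ± 0.49 in Mperf20-21 and -2.09 ± 0.53 in Mphd9-14 (log2, SE), as a description, since the Tak-1 response chose the gene.

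Of the 15 other GT47 genes tested, 4 rose and 1 fell in nitrate starvation, 2 rose and 2 fell in phosphate starvation and 4 rose and 2 fell in sucrose starvation. These shares of 33.3%, 26.7% and 40% stood close to the 31.6%, 24.6% and 35.3% of all genes that passed. The median log2 difference of the 15 was 0.12 for nitrate, against 0.0071 over all genes. MpGT47.8 was higher in all 3 starvations, by 1.19 ± 0.13 for nitrate (adjusted p = 7.31e-08), 0.46 ± 0.14 for phosphate (adjusted p = 0.013) and 1.45 ± 0.14 for sucrose (adjusted p = 1.82e-09). MpGT47.4 was higher by 0.66 ± 0.10 for nitrate (adjusted p = 1.18e-05) and by 0.53 ± 0.10 for phosphate (adjusted p = 0.000341; edgeR). After 24 h of sucrose, 4 others rose and 6 fell, or 66.7% against 54.4% of all genes. Against Tak-1, 6 rose and 3 fell in Mpcsd-2, or 60% against 56.8% of all genes. In each of Mperf20-21 and Mphd9-14, 4 rose and 1 fell, or 33.3% against 41.3% and 43.7% of all genes.

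The genes nearest to MpGT47.9 over the 13 groups were Mp5g14710 (r = 0.906), Mp2g06000 (0.892), Mp2g11040 (0.889), Mp6g01950 (0.889) and Mp1g15340 (0.872), and their r over the 12 mutant groups ran from 0.548 to 0.859. Mp5g14710 had 179 CPM in nitrate-starved plants and 67.1 CPM in control. None of the 5 passed in nitrate or phosphate starvation of any mutant, contrasts that called few genes. Of all genes, 1.85% passed in nitrate starvation of Mpcsd-2, 3.25% in Mperf20-21 and 1.22% in Mphd9-14. In phosphate starvation the shares were 7.8%, 4.57% and 2.3%. In sucrose starvation 1 of the 5 nearest genes rose in each mutant, where 26.2% of all genes passed in Mpcsd-2, 15.3% in Mperf20-21 and 22.4% in Mphd9-14. The lowest r was that of Mp3g22970 (-0.95), with 110 CPM in nitrate-starved plants against 195 CPM in control. The symbol table gives no symbol for these 6 genes.

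MpCE8.1 was the steadiest of the 3. It lay at 19.4, 16.4 and 19.6 CPM in nitrate-starved, 19.1, 22.1 and 17.1 CPM in phosphate-starved and 17.2, 15.5 and 19.5 CPM in sucrose-starved libraries, against 19.3, 20.5 and 18.1 CPM in the control, and all 3 starved groups overlapped with it. The log2 differences were -0.06 ± 0.11 for nitrate and 0.01 ± 0.11 for phosphate (adjusted p = 0.722 and 0.97, edgeR) and -0.15 ± 0.11 for sucrose (SE). The highest group mean, 24.1 CPM at 24 h of sucrose, was 1.39 times the lowest, 17.4 CPM in sucrose-starved plants, and 23.1% of tested genes had a smaller ratio (median 1.70). Neighbouring groups overlapped throughout the order.

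Within that narrow range MpCE8.1 rose 6 h after nutrients returned. It had 23.0, 22.7 and 22.2 CPM after 6 h of nitrate against 19.4, 16.4 and 19.6 CPM in nitrate-starved libraries (log2 difference 0.29 ± 0.11, adjusted p = 0.029, edgeR; 42.3% of all genes passed). After 6 h of phosphate it had 23.4, 25.8 and 22.3 CPM against 19.1, 22.1 and 17.1 CPM in phosphate-starved libraries (0.30 ± 0.11, adjusted p = 0.0257, edgeR; 46% passed). The groups did not overlap in either case. Which comparison led to the choice of MpCE8.1 is not known, so these p-values may not be independent of that choice. The nitrate call was lost without any 1 of the 6 h replicates 1, 2 and 3 (0.28, 0.29 and 0.31; adjusted p = 0.0701, 0.0589 and 0.0519) or nitrate-starved replicate 2 (0.22, adjusted p = 0.151). The phosphate call was lost without 6 h replicate 2 (0.23, adjusted p = 0.133), phosphate-starved replicate 1 (0.29, adjusted p = 0.0612) or phosphate-starved replicate 3 (0.21, adjusted p = 0.168). By 24 and 72 h the differences were 0.21 and 0.12 for nitrate and 0.09 and 0.06 for phosphate, none past the threshold (adjusted p = 0.153 to 0.708, edgeR). After sucrose returned, MpCE8.1 averaged 22.8 ± 2.89 CPM at 6 h, 24.1 ± 0.932 CPM at 24 h and 21.0 ± 3.75 CPM at 72 h (SD, n = 3), log2 differences from sucrose-starved plants of 0.39, 0.48 and 0.27 (description; 61.5%, 54.4% and 39.6% of all genes passed).

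In full medium MpCE8.1 averaged 26.4 ± 0.456 CPM in Mpcsd-2, 26.3 ± 1.05 CPM in Mperf20-21 and 25.7 ± 0.807 CPM in Mphd9-14, against 24.5 ± 2.30 CPM in Tak-1 (SD, n = 3 each). The log2 differences of 0.07 to 0.11 did not pass (adjusted p = 0.251 to 0.512, edgeR), and the ratio of highest to lowest group mean, 1.08, was smaller in 3.67% of genes. Starved mutants had group means between 17.2 and 21.9 CPM, and none of the nitrate and phosphate contrasts with their controls passed (smallest adjusted p = 0.595, edgeR). The sucrose contrasts are descriptions, with log2 differences of 0.04 ± 0.10 in Mpcsd-2, -0.21 ± 0.11 in Mperf20-21 and -0.20 ± 0.10 in Mphd9-14 (SE). Of all genes, 1.22% to 7.8% passed in the nitrate and phosphate contrasts and 15.3% to 26.2% in the sucrose contrasts. The lowest mean was in sucrose-starved Mperf20-21, with 17.2 CPM over its 2 libraries against 19.7, 19.2 and 20.7 CPM in its control. Sucrose-starved Mphd9-14 averaged 18.4 CPM against 21.1 CPM in its control. Both of these starved groups lay below their controls without overlap, as a description. How many of all genes separate in this way was not counted. The nitrate and phosphate responses of MpCE8.1 did not pass against those of Tak-1 in any mutant (smallest adjusted p = 0.713, edgeR), where 4.48% to 14.3% of all genes passed.

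Of the 9 other CE8 genes tested, 2 rose and none fell in nitrate starvation, none rose and 3 fell in phosphate starvation and 4 rose and none fell in sucrose starvation. These were 22.2%, 33.3% and 44.4% of the 9, against 31.6%, 24.6% and 35.3% of all genes. Leaving out 1 library gave 0 to 2 for the first count, 1 to 4 for the second and 2 to 4 for the third. MpCE8.5 was higher by 0.41 ± 0.13 in nitrate (adjusted p = 0.0191) and by 0.57 ± 0.13 in sucrose starvation (adjusted p = 0.00124). MpCE8.14 was lower in phosphate starvation, with a log2 difference of -0.96 ± 0.32 (adjusted p = 0.0251), and higher in sucrose starvation by 1.26 ± 0.30 (adjusted p = 0.00163, edgeR). MpCE8.3 was lower in phosphate starvation, with -1.13 ± 0.24 (adjusted p = 0.000867). Against Tak-1, 5 others rose and 2 fell in Mpcsd-2, 3 rose and 2 fell in Mperf20-21 and 3 rose and 1 fell in Mphd9-14. These were 77.8%, 55.6% and 44.4% of the 9, against 56.8%, 41.3% and 43.7% of all genes. MpCE8.1 itself passed in none.

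The genes nearest to MpCE8.1 over the 13 groups were MpCAS1 (r = 0.964), MpLRE1 (0.958), Mp1g24530 (0.956), MpAPT (0.940) and Mp5g12670 (0.939), with r between 0.449 and 0.760 over the mutant groups. They moved further than MpCE8.1: MpLRE1 had 203 CPM at 24 h of sucrose and 93.3 CPM in sucrose-starved plants. In sucrose-starved mutants 2 of the 5 fell in Mpcsd-2 and 4 of the 5 in each of Mperf20-21 and Mphd9-14, where 10.9%, 6.96% and 9.99% of all genes fell in these mutants. The lowest r belonged to MpPP4 (-0.95), with 58.4 CPM at 24 h of sucrose and 73.3 CPM in sucrose-starved plants.

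Between the 3 genes, group means of log2(CPM + 1) over the 13 time course groups gave r of -0.40 for MpGH16.31 with MpGT47.9, 0.61 for MpGH16.31 with MpCE8.1 and -0.14 for MpGT47.9 with MpCE8.1. Over the 12 mutant groups the values were -0.05, 0.68 and -0.51. By the order of genes in RefSeq's MpTak2_v7.1 annotation, MpGH16.31 lies between MpCE8.9 (Mp4g01190), a gene of the pectin methylesterase family, and MpABC42, and none of the 3 genes lies within 5 genes of another.

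Levels of the same genotype in full medium differed between tables. MpGT47.9 in Mpcsd-2 averaged 4.47 ± 0.687 CPM in the table with Tak-1 and 0.378 ± 0.0881 CPM in the starvation table, and MpGH16.31 averaged 1.64 ± 0.534 and 0.0166 ± 0.0288 CPM (SD, n = 3). Of all genes, 1.21% shifted as far as MpGT47.9 and 0.772% as far as MpGH16.31 between these Mpcsd-2 groups (log2 of CPM + 0.1). In Mperf20-21 MpGH16.31 averaged 1.24 and 0.102 CPM, a shift that 0.683% of genes matched. In Mperf20-21 MpGT47.9 averaged 5.20 and 2.13 CPM, and in Mphd9-14 5.19 and 1.48 CPM. Tak-1 controls of the second and first tables averaged 2.34 and 2.44 CPM for MpGT47.9, and 0.539 and 0.120 CPM for MpGH16.31. Of all genes compared, 7.31% to 13.4% differed by at least 2-fold between tables for the same genotype, so levels in different tables were not compared between genotypes.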

How the data were processed

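The authors' deposited tables hold whole-number read counts per gene and library, with no normalization. STAR 2.7 and DESeq2 are named in the submitters' processing notes; the genome build, annotation, counting tool and strand setting are not given in the sources used here. RNA was extracted with a QIAGEN RNeasy kit and sequenced as directional poly(A) libraries, per the labels' protocols. Of the 125 libraries of the series, 86 from 3 M. polymorpha tables were used.

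Counts were tested per table with edgeR 4.0.16 (limma 3.58.1, R 4.3.3): filterByExpr by group, TMM scaling, 1 quasi-likelihood fit over all libraries of a table, two-sided F-tests, Benjamini-Hochberg adjustment over all genes tested, and a threshold of 0.05. For the responses of mutants against Tak-1, 47 libraries of 2 tables were joined by gene. Alternatives were DESeq2 1.42.0, RLE scaling, no filter, only the compared groups, a replicate block and leaving out each library. The procedure was tested on simulated data. Symbols came from a RefSeq table (MpTak2_v7.1), which matched 17384 of 19355 identifiers, 3091 of them with a symbol. The genes named are the 3 genes, the 5 most and the 1 least correlated with each, and up to 3 genes of a family list with the smallest adjusted p; MpGH16.13 and MpGH16.26 were named after their values were seen. The 3 genes and the lists were chosen with earlier results of these data known. Sequences of the genes were not used here.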

Additional observations from a re-analysis of the deposited data

Results flagged for a closer look

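A test of the difference between genotypes flagged 3 starvation responses of MpGH16.31, as log2 differences of responses in the joined fit. The nitrate response was larger in Mphd9-14 than in Tak-1 by 7.65 (approximate 95% interval 3.42 to 11.9) and larger in Mperf20-21 than in Tak-1 by 6.85 (interval 2.38 to 11.3). With nitrate-starved Tak-1 at 0 counts, the nitrate sizes depend on the fit, and neither they nor their intervals are bounds. In separate fits neither the Tak-1 difference of -4.64 (adjusted p = 0.425, edgeR) nor the Mperf20-21 difference of 2.48 (adjusted p = 0.135, edgeR) passed. The phosphate response was larger in Mpcsd-2 than in Tak-1 by 6.45 (interval 2.54 to 10.4), and this call was lost with only the compared groups in the fit (adjusted p = 0.133, edgeR) and with a replicate block (adjusted p = 0.0504, edgeR). The first call was lost without 1 of the Tak-1 control libraries, and the other 2 calls were each lost in 9 of the 12 fits that left out 1 library. The starved libraries behind them held 81, 52 and 73 counts in nitrate-starved Mphd9-14, 19, 11 and 11 in nitrate-starved Mperf20-21 and 51, 123 and 16 in phosphate-starved Mpcsd-2. Starved Tak-1 held 0, 0 and 0 counts for nitrate and 0, 13 and 0 for phosphate. Mutant and Tak-1 libraries came from different tables, so genotype and table cannot be told apart beyond a constant offset.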

How the results depend on the processing

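No result of the 3 genes that passed the threshold, in the main fit or in an alternative, changed direction under any alternative run. Changes of sign where neither fit passed were not counted, and runs that gave no value were left out. Without the filter on low counts, MpGH16.31 after 24 h of nitrate lost its call (7.45). With only the compared groups in the fit, MpCE8.1 after 6 h of phosphate (0.30) and the phosphate response of MpGH16.31 in Mpcsd-2 against Tak-1 (6.48) lost theirs, while MpGT47.9 after 24 h of sucrose (-0.90) passed. MpGH16.31 in Mperf20-21 against Tak-1 passed with RLE scaling (1.21), without the filter (1.22) and with DESeq2 (1.22). DESeq2 also called MpGH16.31 in nitrate-starved Mperf20-21 (2.52) and its nitrate response in Mpcsd-2 (6.76). Differences that reuse libraries of a gene's choice are descriptions: the sucrose response of MpGH16.31 in Mpcsd-2 minus Tak-1 was 7.19 (6.89 with DESeq2), and the phosphate response of MpGT47.9 in Mphd9-14 minus Tak-1 was -1.66 (-1.65 with DESeq2 and -1.65 with only the compared groups). The cause of these changes was not tested.

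Replicate numbers did not pair the samples: in 0 of 30 comparisons did every same-numbered pair correlate above 0.1 (range -0.579 to 0.382), and in 1 did every sample correlate best with its own number. A fit with a replicate block gave 7.42 and 7.48 for MpGH16.31 after 24 and 72 h of nitrate and 6.37 for its phosphate response in Mpcsd-2, none past the threshold, and moved no other call of the 3 genes.

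Leaving out 1 library moved the fitted log2 differences of MpGH16.31 over 7.26 to 7.58 and 5.00 to 8.03 (24 and 72 h nitrate), 7.45 to 7.98 and 5.12 to 9.09 (6 and 72 h sucrose), 0.91 to 1.63 (Mperf20-21 against Tak-1) and 3.04 to 3.52 (nitrate, Mphd9-14). Its responses against Tak-1 ranged over 5.83 to 9.05 (nitrate, Mperf20-21), 6.62 to 8.15 (nitrate, Mphd9-14), 5.43 to 11.4 (phosphate, Mpcsd-2), 2.77 to 8.74 (phosphate, Mperf20-21) and 1.76 to 7.72 (phosphate, Mphd9-14). The upper ends of the phosphate ranges in Mperf20-21 and Mphd9-14 rest on a starved Tak-1 group left without counts. MpGT47.9 ranged over 1.20 to 1.92 (phosphate starvation), 0.40 to 1.35 (sucrose starvation), -1.48 to -1.02 (6 h nitrate), -1.33 to -0.93 and -1.50 to -0.42 (24 and 72 h phosphate), 0.68 to 1.43 and -1.15 to -0.39 (6 and 24 h sucrose), 1.03 to 1.43 (sucrose, Mperf20-21) and -2.07 to -1.38 (phosphate response, Mphd9-14). MpCE8.1 ranged over 0.22 to 0.34 (6 h nitrate), 0.21 to 0.40 (6 h phosphate) and 0.12 to 0.36 (72 h sucrose).

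With only the compared groups in the fit, the genes called in phosphate starvation numbered 542 in place of 1026 in Mpcsd-2, 906 in place of 602 in Mperf20-21 and 707 in place of 303 in Mphd9-14, and those in nitrate starvation 572 in place of 160 in Mphd9-14 and 30 in place of 243 in Mpcsd-2. In sucrose starvation of Mpcsd-2 the genes called numbered 249 in place of 3442. The share of 26.2% given for that contrast therefore depends strongly on the fit. For MpGH16.31, at 0.120 CPM in control plants, depth is a limit, since 3 counts over a time course group correspond to 0.0307 to 0.0457 CPM. With only the compared groups in the fit, low comparisons of MpGH16.31 and nitrate starvation of MpGT47.9 in Mpcsd-2 gave no value, since the gene did not pass the filter.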
